A study of Sus scrofa with 32 samples.

Results

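The calpain system of pig loin muscle was described here from the genes CAPN1, CAPN2, CAPN3, CAPN6, CAPN7 and CAST. The genes were chosen by symbol, with earlier results of these data known, and 5 of the 6 symbols were found among the 17930 genes listed in the files. No identifier in the files was matched to CAST, so calpastatin is not analysed here. RNA of the longissimus dorsi, the loin muscle, was sequenced in 32 libraries of wild-type pigs aged 6 months. The 4 breed groups of 8 libraries each were the breeds Landrace (L) and Dapulian (DPL), their cross Landrace x Dapulian (LDPL), and the further cross Duroc x Landrace x Dapulian (DLDPL), all kept under similar housing and feeding. The question behind the series is how muscle transcripts vary between these breeds.

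Calpains are proteases of the cytoplasm that are switched on by calcium and cut their substrates at a few sites rather than degrading them whole. CAPN1 (µ-calpain) and CAPN2 (m-calpain) each pair with the small subunit CAPNS1 and are held in check by calpastatin, and in meat CAPN1 is the protease most closely tied to tenderness after slaughter. CAPN3 is the calpain of skeletal muscle and sits on titin, CAPN7 is an atypical member without the usual calcium-binding domain, and CAPN6 lacks the catalytic cysteine and binds microtubules instead of cutting proteins.

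Depth was 21.7 M to 29.7 M reads per library. Of the 4 muscle fibre markers found of 12 listed, TNNC2, ACTA1, PYGM and NEB, none was at 0 in any library, and their summed level was 32914 to 90864 RPKM. L replicate 2 stood apart. It had the highest sum of 4 macrophage markers (78.7 RPKM, against 7.63 to 48.9 in the other 31 libraries) and the highest sum of 5 lymphocyte markers (9.93 RPKM, against 1.36 to 5.73). Its sum of muscle fibre markers was the lowest at 32914 RPKM, just below the range of the other libraries (33910 to 90864). Levels are divided by a TMM scaling factor, which was largest in this library (1.44). Its sum of 2 blood markers was the lowest (6.42 RPKM, against 31.7 to 594). Calls against L were therefore also made without it, and its effect is given beside most of them. The L libraries have a number series of their own, and no batch is labelled, so breed and any separate handling of the L samples cannot be told apart. The labels also give no sex, while CAPN6 lies on the X chromosome in the RefSeq table of assembly Sscrofa11.1, so whether sex is balanced over the groups is not known. Levels below are RPKM (reads per kilobase of gene length, scaled to the library's read total) divided by each library's TMM scaling factor. In such bulk tissue, fewer cells of a type and less RNA per cell cannot be told apart.

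All 5 calpains had reads in all 32 libraries and passed the filter on low counts. CAPN3 was by far the most abundant, with 80.1% to 82.7% of the summed level of the 5 genes in each group. CAPN2 followed with 7.11% to 9.64% and CAPN1 with 5.77% to 6.41%. CAPN1 and CAPN2 levels overlapped in L, DPL and DLDPL, while in LDPL the highest CAPN1 level (26.3 RPKM) was below the lowest CAPN2 level (29.4 RPKM). CAPN6 and CAPN7 were the least abundant. CAPN6 made up 2.77% of the sum in L, 2.17% in LDPL and 2.48% in DLDPL, but 0.996% in DPL. In DPL the highest CAPN6 level (4.59 RPKM) was below the lowest CAPN7 level (6.79 RPKM), whereas in the other groups the levels of these genes overlapped.

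CAPN6 was the calpain with the widest differences between breeds, and DPL was the low group. In the 8 L libraries its level was 11.6, 36.8, 10.5, 9.77, 11.5, 4.91, 8.90 and 8.73 RPKM for replicates 1, 2, 4, 5, 7, 8, 9 and 10. In DPL it was 4.12, 3.77, 4.04, 1.31, 3.12, 4.36, 3.69 and 4.59 RPKM for replicates 7, 11, 16, 19, 21, 23, 26 and 30. All DPL libraries were below all L libraries, with L replicate 8, at 4.91 RPKM, next to the highest DPL library. In LDPL it was 7.35, 12.4, 6.45, 4.34, 14.3, 8.79, 5.98 and 6.02 RPKM for replicates 4, 5, 8, 9, 10, 14, 15 and 24. In DLDPL it was 8.16, 10.8, 12.1, 8.43, 9.53, 6.50, 14.1 and 9.30 RPKM for replicates 6, 18, 20, 25, 27, 28, 29 and 32. DPL did not overlap DLDPL, and it overlapped LDPL only through LDPL replicate 9. The share of all genes whose ranges separate in this way is not given here. The separations from L and DLDPL therefore cannot be set against genes in general. The deposited read counts behind these levels were 125 to 416 reads for DPL, 454 to 4707 for L, 419 to 1261 for LDPL and 652 to 1443 for DLDPL. Reads covered 88.21% to 99.11% of the 3578 listed bases of CAPN6. How evenly the reads lie over these bases is not given.

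**Figure D1:**
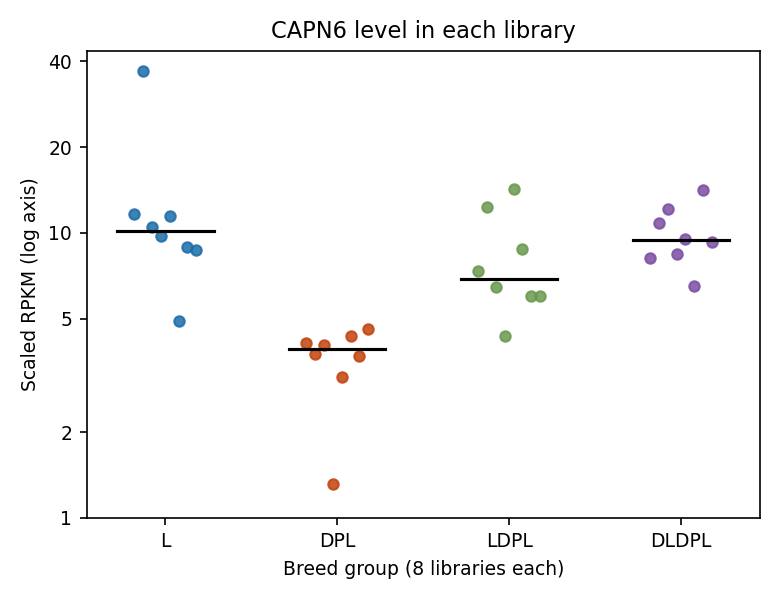
CAPN6 level (RPKM divided by the TMM factor, log axis) in each of 8 libraries per breed group, with a line at the group median. The 8 DPL libraries lie between 1.31 and 4.59 RPKM, below all L and DLDPL libraries, and 1 L library lies at 36.8 RPKM.

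Mean CAPN6 level was 12.8 ± 9.92 RPKM for L, 3.62 ± 1.04 for DPL, 8.20 ± 3.44 for LDPL and 9.88 ± 2.42 for DLDPL (SD, n = 8). Without L replicate 2 the L mean was 9.41 ± 2.29 RPKM (SD, n = 7). Tested over all 4 groups with edgeR's quasi-likelihood F test and adjusted over 12821 genes, CAPN6 differed between groups (adjusted p = 0.000114, and 3.11e-05 without L replicate 2). By that test 37.4% of all genes differed, and CAPN6 ranked 883 of 12821.

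CAPN6 was 3.55-fold lower in DPL than in L (log2 change -1.83 ± 0.30 SE, edgeR adjusted p = 1.19e-05). Without L replicate 2 the fold was 2.62 and the adjusted p was 1.85e-05. CAPN6 and CAPN1 were the 2 of 5 calpains lower in DPL than in L, beside 18.9% of all genes lower and 19.1% higher, and no calpain was higher. Since the call rate is so high in pairs with L, the count of calpains called is close to what the genes in general did.

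The pairs without L had far fewer calls. CAPN6 was 2.73-fold higher in DLDPL than in DPL (log2 change 1.45 ± 0.29 SE, edgeR adjusted p = 0.00406), where 1.98% of genes were higher and 2.12% lower. It was 2.26-fold higher in LDPL than in DPL (log2 change 1.18 ± 0.29 SE, edgeR adjusted p = 0.0257), where 1.29% of genes were higher and 1.56% lower. In both pairs CAPN6 was the 1 calpain of 5 called. The call against LDPL was lost without LDPL replicate 5 (log2 change 1.07, adjusted p = 0.0599) and without LDPL replicate 10 (log2 change 1.02, adjusted p = 0.0715), the highest libraries of that group, and by limma on log2(RPKM + 1) (adjusted p = 0.0523). All 6 pairs draw on the same 4 groups, so the pairs with DPL share its 8 low libraries and are not independent of each other.

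CAPN6 did not pass the test between L and the crosses. LDPL was at a log2 change of -0.65 ± 0.29 SE from L (adjusted p = 0.0848, 95% interval -1.23 to -0.07), and at -0.21 without L replicate 2 (adjusted p = 0.521). DLDPL was at -0.38 ± 0.29 SE from L (adjusted p = 0.36), and at 0.06 without L replicate 2 (adjusted p = 0.874), so its sign rests on that library. DLDPL was at 0.27 ± 0.29 SE from LDPL (adjusted p = 0.893, 95% interval -0.31 to 0.85). No calpain was called in that pair, nor was any of the 12821 genes by edgeR (0% higher and 0% lower), although 969 genes had an unadjusted p under 0.05 and DESeq2 called 33. LDPL was also set against the midpoint of its parent breeds on the log2 scale, a test of whether the cross departs from the average of L and DPL. CAPN6 was 0.26 ± 0.25 SE above the midpoint (adjusted p = 0.565), and 0.49 ± 0.19 SE above it without L replicate 2 (adjusted p = 0.111). No calpain departed from the midpoint, beside 5.13% of genes above and 2.99% below it.

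**Figure D2:**
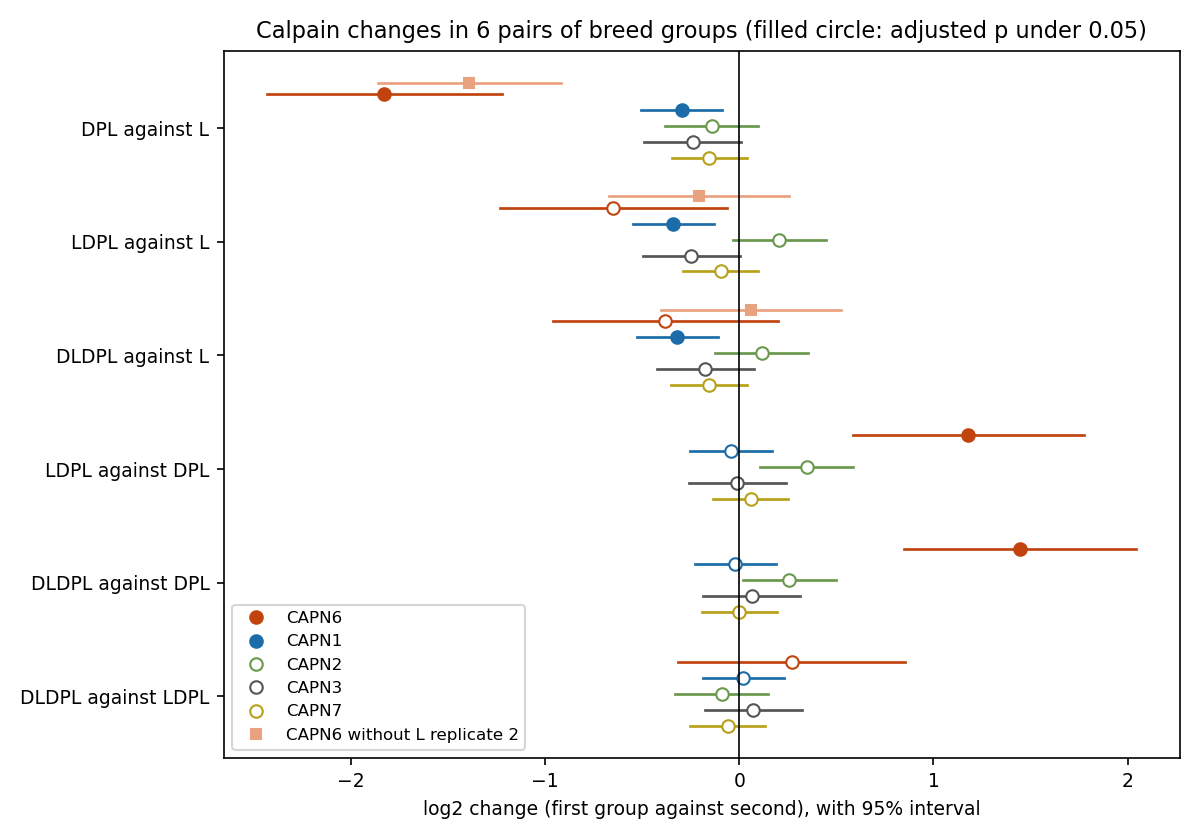
Fitted log2 change of each calpain (circles, with 95% intervals) in the 6 pairs of breed groups, filled where the adjusted p was under 0.05, with CAPN6 fitted without L replicate 2 as squares for the pairs with L. CAPN6 is called in the 3 pairs with DPL, and CAPN1 in the 3 pairs with L.

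CAPN1, the µ-calpain, followed another order, with L as the high group. Its level was 24.8 to 36.4 RPKM in L (median 28.0), 18.6 to 31.7 in DPL (median 22.2), 18.2 to 26.3 in LDPL (median 23.1) and 18.2 to 29.2 in DLDPL (median 22.7). The ranges overlapped in all pairs, and the lowest L library was above the median of each other group. CAPN1 was 1.23-fold lower in DPL than in L (log2 change -0.30 ± 0.10 SE, edgeR adjusted p = 0.0219). It was 1.27-fold lower in LDPL (adjusted p = 0.0123) and 1.25-fold lower in DLDPL (adjusted p = 0.0243). CAPN1 was the 1 calpain called against L in each cross, beside 14.7% of genes lower and 14.9% higher in LDPL, and 10.3% lower and 11.6% higher in DLDPL. The calls are near the threshold: DPL against L was lost without L replicate 4 (adjusted p = 0.062) or DPL replicate 11 (adjusted p = 0.0535) or with only these groups in the fit (adjusted p = 0.0625), and DLDPL against L without L replicate 4 (adjusted p = 0.0662) or DLDPL replicate 25 (adjusted p = 0.0583). CAPN1 was still called in the 3 pairs with L when L replicate 2 was left out (log2 change -0.33, -0.36 and -0.34 for DPL, LDPL and DLDPL, adjusted p = 0.0165, 0.0105 and 0.0206). In the RefSeq table another listed gene, LOC102165049, overlaps CAPN1, and without strand its reads in the overlap cannot be told from those of CAPN1. No listed gene overlaps the other 4 calpains there.

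CAPN2, the m-calpain, was not called in any pair, with or without L replicate 2. Its level was 24.1 to 38.5 RPKM in L (median 32.0), 21.8 to 34.0 in DPL (median 29.7), 29.4 to 44.2 in LDPL (median 36.6) and 26.1 to 47.9 in DLDPL (median 32.8). DPL had the lowest median and LDPL the highest, with overlapping ranges. The nearest values to a call were LDPL against the midpoint (log2 change 0.28 ± 0.10 SE, edgeR adjusted p = 0.084) and LDPL against DPL (0.35 ± 0.12 SE, adjusted p = 0.099).

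CAPN3, whose loss causes a limb-girdle muscular dystrophy in humans, was at 315 to 422 RPKM in L (median 371), 223 to 417 in DPL (median 321), 251 to 441 in LDPL (median 299) and 253 to 388 in DLDPL (median 332). Its mean level was above that of 98.5% of tested genes, and its ranges overlapped in all pairs. It was not called in any pair: DPL was at a log2 change of -0.24 ± 0.12 SE from L (edgeR adjusted p = 0.124) and LDPL at -0.25 ± 0.12 SE (adjusted p = 0.125). Scaled by total reads, CAPN3 was lower in DPL than in L (log2 change -0.42, edgeR adjusted p = 0.0152), as was CAPN7 (-0.30, adjusted p = 0.0315). LDPL replicate 9 was the highest library at 441 RPKM, and without it LDPL was lower than L (log2 change -0.34, adjusted p = 0.0332).

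CAPN7, at a level near that of CAPN6 outside DPL, was at 6.77 to 10.4 RPKM for L, 6.79 to 9.17 for DPL, 7.15 to 9.38 for LDPL and 6.21 to 9.26 for DLDPL. The groups overlapped and no pair was called. With L replicate 2 left out, DPL was at a log2 change of -0.22 ± 0.09 SE from L for CAPN7 (edgeR adjusted p = 0.066) and at -0.22 ± 0.13 SE for CAPN3 (adjusted p = 0.162). The 95% interval for DLDPL against DPL was -0.19 to 0.19 on the log2 scale, and for DPL against L it was -0.35 to 0.04.

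**Figure D3:**
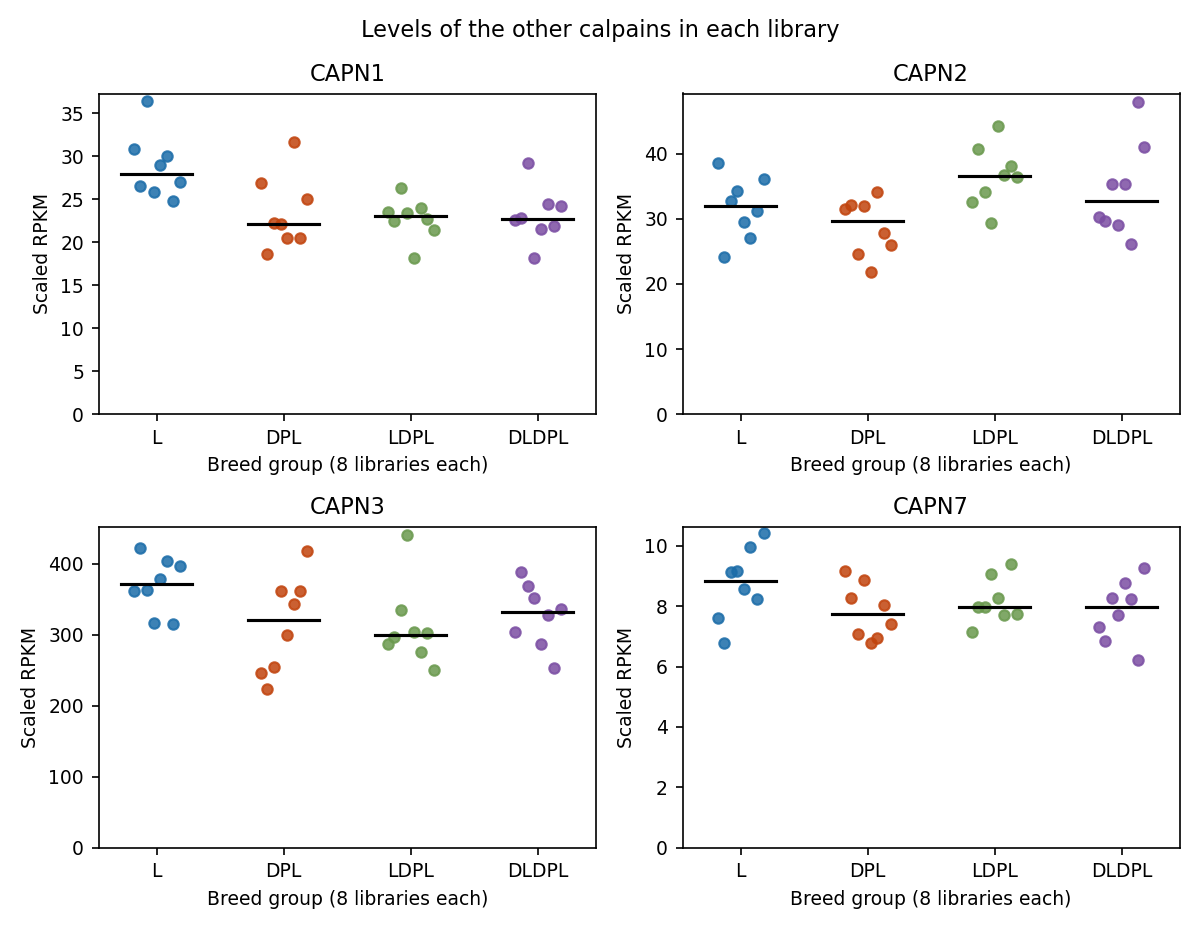
Levels of CAPN1, CAPN2, CAPN3 and CAPN7 (RPKM divided by the TMM factor, linear axes from 0) in each of 8 libraries per breed group, with a line at the group median. The groups overlap for all 4 genes, and CAPN1 has its highest median, 28.0 RPKM, in L.

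The balance of CAPN1 and CAPN2 was compared within libraries, where the scaling between libraries cancels. The ratio of CAPN1 to CAPN2 in deposited RPKM was 0.750 to 1.11 in L (mean 0.925 ± 0.167), 0.581 to 0.967 in DPL (0.825 ± 0.140), 0.412 to 0.797 in LDPL (0.637 ± 0.127) and 0.458 to 0.934 in DLDPL (0.695 ± 0.152; SD, n = 8). It was above 1 in 3 of 8 L libraries and in 0 of the other 24. Its place relative to 1 depends on the listed gene lengths. Reads covered 81.96% to 83.78% of the listed bases of CAPN2, against 95.99% to 99.93% of those of CAPN1. By two-sided exact permutation tests of the log2 ratio, adjusted over 6 pairs, the ratio was 1.46-fold lower in LDPL than in L (p = 0.00186, adjusted 0.0112). It was 1.34-fold lower in DLDPL than in L (exact permutation p = 0.0121, adjusted 0.0345) and 1.3-fold lower in LDPL than in DPL (exact permutation p = 0.0172, adjusted 0.0345). The last of these was lost in 9 of 16 tests that left out a library of that pair. The ratio without L replicate 2 stayed lower than in L in LDPL (log2 difference -0.51, exact permutation, adjusted p = 0.0224) and in DLDPL (-0.39, adjusted p = 0.0485). The ratio in DPL was at a log2 difference of -0.16 from L (exact permutation p = 0.229, adjusted 0.275), and in DLDPL at -0.26 from DPL (adjusted 0.151) and 0.12 from LDPL (adjusted 0.451).

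**Figure D4:**
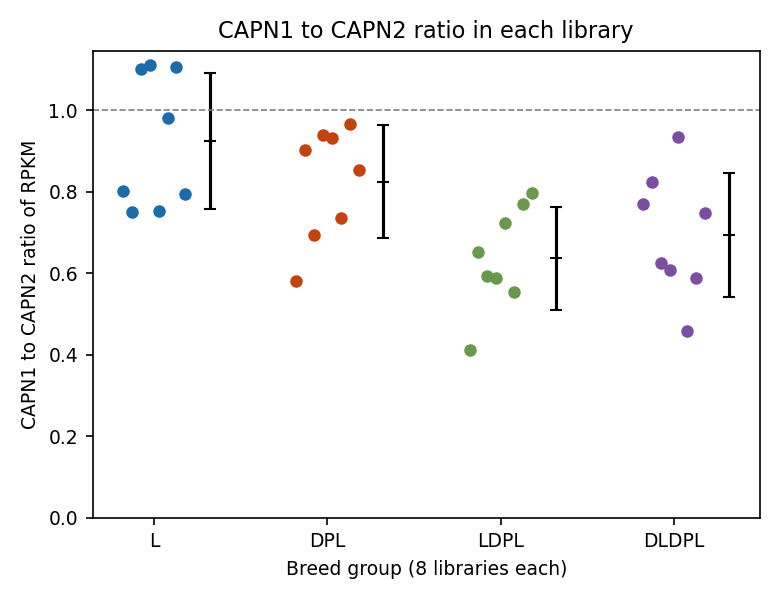
Ratio of CAPN1 to CAPN2 RPKM in each of 8 libraries per breed group, with the group mean and SD as bars beside the points and a dashed line at 1. The L mean is 0.925 and the LDPL mean 0.637, and all libraries above 1 are from L.

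Of 11 further calpain family genes, 5 were matched and 3 were tested. CAPNS1, the shared small subunit, was at 62.8 to 111 RPKM in L (median 74.8) and 88.0 to 132 in DPL (median 108), overlapping through L replicate 2. It was 1.42-fold higher in DPL than in L (edgeR adjusted p = 0.000183) and lower in LDPL than in DPL (log2 change -0.37 ± 0.10 SE, adjusted p = 0.0394). CAPN5, a membrane-associated calpain, was 1.32 to 2.15 RPKM in L and 0.620 to 1.39 in DPL, which overlap at their ends, and was 1.83-fold lower in DPL (adjusted p = 0.000359). Leaving out L replicate 2, the log2 change in DPL against L was 0.59 for CAPNS1 (adjusted p = 6.05e-06) and -0.83 for CAPN5 (adjusted p = 0.000943), and CAPNS1 was then also higher in DLDPL than in L (0.30, adjusted p = 0.0166). CAPN15 was not called. CAPN9 and CAPN11 were listed in 2 and 12 libraries, with at most 2 and 4 reads, and were not tested.

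Among structural proteins that calpains cut or that sit near CAPN3 on titin, most of those called against L were lower in L. Of 13 tested targets and partners, 6 were higher and 1 lower in DPL than in L, with a median log2 change of 0.00 against -0.02 over all genes, of which 19.1% were higher and 18.9% lower. Without L replicate 2 it was 6 and 2, with a median of -0.09, and the second lower gene was ANKRD23 (log2 change -0.58, edgeR adjusted p = 0.0146). ANKRD2, a stretch-responsive titin-associated protein, was 21.6 ± 14.8 RPKM in L and 291 ± 119 in DPL (SD, n = 8), 13.4-fold higher (edgeR adjusted p = 9.16e-09). FLNC, an actin crosslinker of the Z-disc, was 3.58-fold higher (adjusted p = 6.09e-07), MYOT, myotilin, 1.75-fold higher (adjusted p = 4.31e-07) and VCL, vinculin, 1.5-fold higher (adjusted p = 0.00285). These 4 kept their calls without L replicate 2. In LDPL 5 were higher than in L and 0 lower (14.9% and 14.7% of all genes), and in DLDPL 4 and 0 (11.6% and 10.3%), with the same counts without L replicate 2. In DLDPL against DPL, 1 was higher and 2, ANKRD2 and MYOT, were lower (1.98% and 2.12% of all genes). In LDPL against DPL, 1 was higher and 0 lower (1.29% and 1.56% of all genes). The gene higher in both crosses than in DPL, and the 1 lower in DPL than in L, was DMD, dystrophin, which was picked out after its values were seen. It was at 34.3 ± 5.42 RPKM for L, 27.5 ± 4.03 for DPL, 36.9 ± 2.94 for LDPL and 38.2 ± 5.24 for DLDPL (SD, n = 8).

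From a longer list made around the binding of CAPN6 to microtubules, the 4 genes with the smallest p over the 4 groups are given. They were picked for that p, so they do not describe microtubule genes as a whole. MAPRE1, which binds growing microtubule ends, was 7.02 ± 0.98 RPKM in L and 19.1 ± 3.0 in DPL (SD, n = 8), 2.72-fold higher (edgeR adjusted p = 6.23e-11). The tubulin TUBA4A was 9.71-fold higher (adjusted p = 1.59e-05) and the microtubule-associated MAP1A 2.17-fold higher (adjusted p = 0.000594). DCX, doublecortin, the next gene to CAPN6 in the RefSeq table, was 2.67-fold lower in DPL (adjusted p = 3.73e-05) at 0.224 ± 0.0415 RPKM in L and 0.0836 ± 0.0357 in DPL. DCX was also lower in LDPL than in L (log2 change -1.42 ± 0.25 SE, adjusted p = 6.24e-05), a pair in which CAPN6 was not called. Whether these genes differ in that change was not tested. These 4 genes kept their calls in DPL against L without L replicate 2. DCX also kept its call in LDPL against L without that library (log2 change -1.37, edgeR adjusted p = 0.000152). MAPRE1 was lower in DLDPL than in DPL (log2 change -0.44 ± 0.12 SE, adjusted p = 0.0235), and it was the 1 of these 4 genes called between DPL and a cross.

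Other proteolytic systems were counted beside the calpains. Of 9 caspases and related genes, 1 was higher and 5 lower in DPL than in L, with a median log2 change of -0.59 against -0.02 over all genes, of which 19.1% were higher and 18.9% lower. Leaving out L replicate 2 gave 1 and 4, with a median of -0.54. CASP2 was 2.28-fold lower (edgeR adjusted p = 1.59e-06), APAF1, the apoptosome scaffold, 2.69-fold lower (adjusted p = 9.09e-05), CASP6 1.62-fold lower (adjusted p = 0.0256) and CASP10 1.98-fold higher (adjusted p = 0.000666). Mean levels were 3.96 RPKM in L and 1.74 in DPL for CASP2, and 0.388 and 0.143 for APAF1. They were 2.07 and 1.27 RPKM for CASP6, and 0.843 and 1.68 for CASP10. Of 9 cathepsins and cystatins, 1 was higher (CTSL, 2.10-fold, adjusted p = 0.034) and 1 lower (CTSO, 2.06-fold, adjusted p = 0.00228), and without L replicate 2 it was 3 and 1, with CTSL 3.17-fold higher. Mean levels over all libraries were 0.897 RPKM in L and 1.92 in DPL for CTSL, and 0.703 and 0.342 for CTSO. Of 10 muscle ubiquitin ligases, 2 were higher and 2 lower, and without L replicate 2 it was 1 and 2. TRIM63, the muscle atrophy ligase MuRF1, was 2.35-fold higher (edgeR adjusted p = 4.46e-06), with means of 160 RPKM in L and 377 in DPL. FBXO40 and TRIM32 were 2.01-fold and 1.48-fold lower (edgeR adjusted p = 0.000479 and 0.00139). The other caspases, cathepsins and ligases named kept their calls without that library, CASP6 narrowly (adjusted p = 0.0482). In LDPL and in DLDPL against DPL, 0 of the tested caspases, cathepsins and ligases were called by edgeR. Few genes were called in these pairs: 1.29% of all genes higher and 1.56% lower in LDPL, and 1.98% and 2.12% in DLDPL. A count of 0 is thus close to what the genes in general did.

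Genes of immature fibres and myogenesis were lower in DPL than in L for 8 of 11 tested and higher for 1, with a median log2 change of -0.99, beside 18.9% of all genes lower and 19.1% higher. Leaving out L replicate 2 gave 7 and 1, with a median of -0.90. That library held 37.8 RPKM of MYH3, embryonic myosin, against 0.584 to 10.1 in the other L libraries. It held 55.9 RPKM of TNNT2, cardiac and embryonic troponin T, against 0.874 to 3.64. It was thus high in these genes as well as in CAPN6, and their part in its CAPN6 level was not tested. Without it, TNNT2 and MYH3 were still lower in DPL than in L (log2 change -1.13 and -1.44, edgeR adjusted p = 0.00557 and 0.0378). CDH15, M-cadherin of satellite cells, was 14.5 ± 2.26 RPKM in L and 7.30 ± 2.04 in DPL (SD, n = 8; adjusted p = 2.59e-05). The other satellite cell markers found were not called in that pair. MYF5 had a higher mean in DPL (1.66 RPKM in L, 2.91 in DPL) and CHODL a lower one (2.18 and 1.66). MYF6, a regulator of mature fibres, was higher in DPL (log2 change 1.27 ± 0.22 SE, adjusted p = 2.94e-05). In LDPL and DLDPL against L, 6 and 3 were lower (14.7% and 10.3% of all genes) and 1 was higher in each, and without L replicate 2 the lower counts were 4 and 1.

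Some markers of fibroblasts and other cells differed between the same groups as CAPN6. Of 8 fibroblast markers listed, 6 were found (DCN, LUM, POSTN, COL1A2, FAP and COL3A1), and none was at 0 in any library. Their summed level was 419 to 677 RPKM in L (median 551), 174 to 563 in DPL (median 313), 219 to 586 in LDPL (median 421) and 335 to 666 in DLDPL (median 481). Of the 6, 4 were lower in DPL than in L, 3 were higher in DLDPL than in DPL (COL1A2, FAP and COL3A1) and 1 was higher in LDPL than in DPL (COL3A1). The shares of all genes called that way were 18.9%, 1.98% and 1.29%, in the same order of pairs. DCN and POSTN were called in none of these pairs. DCN made up a large part of the sum, with a mean of 251 RPKM in L and 239 in DPL, beside 217 and 48.4 for COL3A1. CNN1, calponin of smooth muscle, was lower in DPL than in L (log2 change -1.08 ± 0.20 SE, edgeR adjusted p = 7.33e-05) and higher than DPL in LDPL (0.88 ± 0.20 SE, adjusted p = 0.0136) and DLDPL (1.01 ± 0.20 SE, adjusted p = 0.00321). Of the other 3 smooth muscle markers, ACTA2 and TAGLN were higher in DPL than in L and MYH11 was not called. Of the 4 muscle fibre markers, ACTA1 and PYGM were lower in DPL than in L, with a median sum of 81077 RPKM in L and 48531 in DPL. The fibroblast, smooth muscle and muscle fibre calls in that pair held without L replicate 2, ACTA2 narrowly (edgeR adjusted p = 0.044). PECAM1 of endothelium, FMOD of tendon, PLIN4 of adipocytes and CD3D of lymphocytes were also lower there, each 1 of 3 tested in its list. These genes were not called between DPL and a cross, and their values without L replicate 2 are not given here. No tested macrophage, blood or nerve marker was called in DPL against L. DPL replicate 19, with the lowest CAPN6, had the lowest sum of fibroblast markers, 174 RPKM. DPL replicate 16, in turn, had a sum of 563 RPKM, above the L median, with CAPN6 at 4.04 RPKM. The part of these cell types in the CAPN6 differences was not tested. Mitochondrially encoded genes took a median share of 32.9% for DPL libraries, 20.0% for L, 23.3% for LDPL and 23.5% for DLDPL, and CAPN6 kept its 3 calls when they were left out of the fit.

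**Figure D5:**
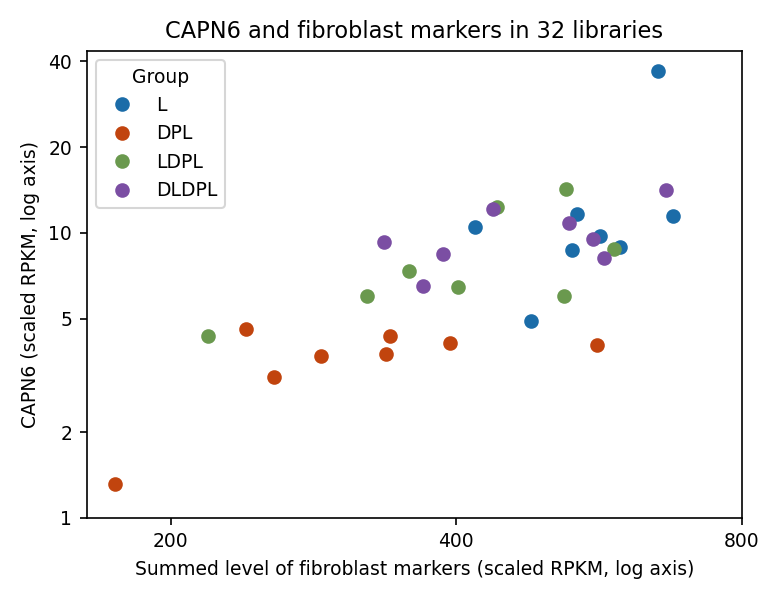
CAPN6 level against the summed level of 6 fibroblast markers (both RPKM divided by the TMM factor, log axes) in 32 libraries coloured by breed group. DPL libraries have CAPN6 of 1.31 to 4.59 RPKM over marker sums of 174 to 563, and L replicate 2 is the highest point at 36.8 RPKM.

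The genes most like CAPN6 were sought by Pearson correlation of log2 CPM over the 32 libraries after subtracting each group's mean, as a description with no test. The 8 highest were CERCAM (r = 0.76, Spearman's coefficient 0.66), ADAMTS15 (0.73, 0.49), COL16A1 (0.72, 0.62), LAMB1 (0.70, 0.51), FRMD6 (0.69, 0.53), RCN3 (0.68, 0.59), GLT8D2 (0.67, 0.65) and VASH2 (0.67, 0.56). COL16A1 and LAMB1 encode a collagen and a laminin chain, and ADAMTS15 a protease of the extracellular matrix. The libraries farthest from their group's mean in CAPN6 were L replicate 2 (1.76 above on the log2 scale) and DPL replicate 19 (1.37 below). Without both, r of these 8 genes was 0.54 to 0.65. Without L replicate 2 alone the 8 highest were COL15A1 (r = 0.73), SFXN1, MVK, SPATS2L, COL3A1 (r = 0.69), GLT8D2, CCDC80 and GFRA2, so GLT8D2 was the 1 gene shared by both lists. The libraries share differences in tissue makeup and depth, and these correlations carry them too. Of the other calpains, CAPN7 had r = -0.55 with CAPN6 (-0.42 without L replicate 2), CAPN2 0.14 (0.44 without), CAPN1 -0.04 (0.04 without) and CAPN3 -0.13 (-0.29 without).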

How the data were processed

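RNA-seq of pig longissimus dorsi was deposited as 1 table per library for 32 libraries. The authors deposited raw counts of reads per gene, RPKM, the percent of gene length covered and the length in bases. Recomputing RPKM from counts and length gave the deposited values within a relative deviation of 2.2e-14. Bowtie 0.12.2 and Cufflinks are named in the submitters' processing notes, with mm8, a mouse build. Coordinates are left out, since the pig build is not given in the sources used here. The library kit does not mark strand. Groups came from the labels, which speak of 8 pigs per group but do not tie each library to 1 animal. If some share an animal, p-values measure only the spread between samples. Symbols from reference tables (RefSeq assembly Sscrofa11.1 for gene order) matched 10836 identifiers, 60.4%. CAST was not among them, so the planned ratios to calpastatin were not computed and the 6 tests of CAPN1 to CAPN2 stand alone.

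Genes were kept with filterByExpr (minimum count 10, minimum total count 15; 12821 genes with 99.97% of reads) and fitted in 1 quasi-likelihood model over 4 groups with edgeR 4.0.16 (R 4.3.3) and TMM scaling. P-values were adjusted over all genes by Benjamini-Hochberg and called under 0.05. All adjusted p of genes are from edgeR unless another tool is named. Intervals are 95%. Alternatives were DESeq2 1.42.0, limma 3.58.1 on log2(RPKM + 1) and log2(RPKM + 0.1), RLE scaling, total reads, no mitochondrial genes, no filter, the compared groups only, and each library left out. Ratios were tested by exact permutation (scipy 1.17.1). The test was checked on simulated counts. Members and gene lists were chosen with earlier results of these data known. Genes named are all calpains, up to 4 genes per list with the smallest 4-group p, and the 8 genes most correlated with CAPN6. The counts of 1 list, from which microtubule genes are named, are not reported here. The fits without L replicate 2 for lists, list genes and markers were chosen after seeing the data.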

Additional observations from a re-analysis of the deposited data

Results flagged for a closer look

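In 24 sets of 8 libraries (5 calpains and the CAPN1 to CAPN2 ratio in 4 groups), the highest or lowest library was checked for a gap to its neighbour, as a share of the group's range, above Dixon's critical value. Chance alone gives such a gap in about 1 in 20 groups, and 3 were found. CAPN6 in L replicate 2 was 36.84 RPKM, against 11.6 in the next L library, a gap of 0.79 of the range. CAPN6 in DPL replicate 19 was 1.31 RPKM, against 3.118 in the next DPL library, a gap of 0.551. CAPN3 in LDPL replicate 9 was 440.7 RPKM, against 335.1 in the next LDPL library, a gap of 0.556.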

How the results depend on the processing

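Of 1164 values recomputed under the alternatives, 1077 kept their direction and call. CAPN6 kept its call in all of them for DPL against L (log2 change -2.141 to -1.392) and DLDPL against DPL (1.321 to 1.603). For LDPL against DPL it was not called by limma on log2(RPKM + 1) (1.034), which left 0 calpains called there. Calpains called in DPL against L numbered 4 by total reads and by limma with either pseudocount (CAPN3 and CAPN7 added), and 1 with only the compared groups in the fit. Limma moved the median of all genes to -0.116 and -0.182 in that pair, against -0.019 by edgeR with TMM. CAPN6 reversed in LDPL against L, from -0.65 to 0.063, when only the 10 libraries with shared replicate numbers were fitted. In DLDPL against L it reversed from -0.38 to 0.062 without L replicate 2. The other reversals were of changes near 0. CAPN7 in DLDPL against DPL (-0.0004) became 0.134 by total reads, 0.005 with the compared groups only, and 0.123 and 0.139 by limma. By total reads and by limma with 1 and 0.1, CAPN1 in LDPL against DPL became 0.072, 0.07 and 0.073, CAPN3 there 0.098, 0.105 and 0.105, CAPN1 in DLDPL against DPL 0.137, 0.124 and 0.129, and CAPN7 in LDPL against the midpoint 0.003, 0.007 and 0.009. The cause was not tested.

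Leaving out 1 library gave ranges of -0.811 to -0.21 for CAPN6 in LDPL against L (called without L replicate 8, adjusted p = 0.0365, or LDPL replicate 10, adjusted p = 0.0341), -0.502 to 0.062 in DLDPL against L and 1.017 to 1.272 in LDPL against DPL. CAPN1 ranged over -0.084 to 0.026 in LDPL against DPL, -0.077 to 0.047 in DLDPL against DPL and -0.034 to 0.064 in DLDPL against LDPL. CAPN3 ranged over -0.098 to 0.061 in LDPL against DPL, and CAPN7 over -0.038 to 0.046 in DLDPL against DPL and -0.05 to 0.006 against the midpoint. Calpains called ranged over 1 to 3 in DPL against L (3 without DPL replicate 30), 1 to 2 in LDPL against L, and 0 to 1 in both DLDPL against L and LDPL against DPL. The log2 ratio of CAPN1 to CAPN2 ranged over -0.452 to -0.297 in LDPL against DPL and -0.329 to -0.178 in DLDPL against DPL, the latter called without DPL replicate 11 (exact permutation, adjusted p = 0.049).

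L and LDPL share 5 replicate numbers, which the labels do not tie to a day. Pigs of a pure breed and of its cross are not litter mates, so the numbers do not mark a shared litter. Deviations of same-numbered libraries correlated at -0.051 to 0.091, and none correlated best with its own number. With 5 pairs this cannot tell whether same-numbered libraries share a day. With the replicate block on these 10 libraries CAPN6 was at -0.018 and 0 calpains were called, and without the block it was at 0.063 and 0 were called. In the main fit it was at -0.65, and these 10 libraries do not include L replicate 2. DPL shares 1 number with L, too few for a paired fit, and no other groups share any. Ratios to calpastatin, and a fit of the compared groups only for the midpoint, were not run. CAPN6 had 125 reads or more in each library, while CAPN9 and CAPN11, with at most 2 and 4 reads, could not be compared at this depth.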
